A study of Mus musculus with 6 samples.

Results

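Acetylated PU.1 and C/EBPβ sites without PPARγ are places in the macrophage genome where both lineage factors and an active histone mark were called but the nuclear receptor was not. They were chosen by measured values, the peak calls themselves, as autosomal PU.1 regions that overlap a C/EBPβ region and a region of acetylated histone H3 lysine 9 (H3K9Ace) by at least 1 bp, and no region of the longer macrophage PPARγ list. The rule kept 5055 of 45485 autosomal PU.1 regions, 11.1%. They are called PPARγ-free sites here, and the 2375 sites that meet the same rule but do overlap PPARγ are called PPARγ-carrying sites.

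The series mapped protein occupancy by ChIP-seq, the sequencing of DNA that an antibody pulls down with its target. The macrophages were thioglycollate-elicited peritoneal cells of male C57BL/6 mice, collected 3 days after injection of 1 ml of 3% thioglycollate and after 24 h of adherence. Cells of at least 4 animals were pooled for a sequencing run, and the macrophage PPARγ data joined 2 runs. PU.1, C/EBPβ, H3K9Ace and PPARγ were mapped in these macrophages, and PPARγ and H3K9Ace in differentiated adipocytes of 3T3-L1, a mouse preadipocyte cell line. No genetic change or drug treatment is named for either cell type. Each group holds 1 library, so there are no replicates, and every interval and test runs over regions of the lists. The files give positions in mouse genome build mm8 without gene names, read totals or expression, so depth is unknown and the labelled cell types were not checked against marker genes.

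PU.1 is an ETS-family factor that opens and marks enhancers in myeloid cells, and C/EBPβ is a leucine-zipper factor used in both macrophages and fat cells. Regions bound by such lineage factors often carry acetylated histones when they are active. PPARγ binds DNA together with RXR, drives fat cell formation and has a narrower role in macrophages. The adipocyte lists show which of the macrophage sites are also acetylated or bound by the receptor in a cell type with much PPARγ.

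The choice proceeded in steps. Of the autosomal PU.1 regions, 13080 overlapped C/EBPβ, 28.8%. Of these, 7430 lay in macrophage H3K9Ace, 56.8%. PPARγ was absent from 5055 of the 7430, 68.0% (95% Wilson interval 67.0 to 69.1). For comparison, PPARγ was absent from 80.3% of the PU.1 and C/EBPβ regions outside H3K9Ace, 4535 of 5650, called unacetylated sites here. It was absent from 89.6% of acetylated PU.1 regions without C/EBPβ, 10102 of 11270, called PU.1-alone sites. These shares follow from the lists that the rule uses and were not tested. The PPARγ-free sites rested on 4916 distinct C/EBPβ regions and 4518 distinct acetylated regions, called domains below, so some of them share a source.

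The adipocyte lists played no part in the choice and were tested. Adipocyte H3K9Ace covered PPARγ-free sites slightly more often than PPARγ-carrying sites, while adipocyte PPARγ was far less frequent at them. Of the PPARγ-free sites, 2407 of 5055 lay in adipocyte H3K9Ace, 47.6% (46.2 to 49.0), against 1002 of 2375 PPARγ-carrying sites, 42.2% (40.2 to 44.2). Over all autosomal PU.1 regions the share was 28.1%. The odds ratio, PPARγ-free over PPARγ-carrying, was 1.25 (95% interval 1.13 to 1.38) by a 2-sided Fisher's exact test, adjusted p = 1.6e-05 over 9 tests. The same ratio was 1.04 (Fisher's exact test, adjusted p = 0.653) when PPARγ was taken from the final macrophage list, whose 1961 regions on all chromosomes replace the 18470 of the longer list. With PPARγ-free sites only from domains that hold no PPARγ at all it was 1.11 (Fisher's exact test, adjusted p = 0.0614). Such sites lay in domains of a median 1500 bp, and within quartiles of domain width their common ratio was 1.47 (95% interval 1.32 to 1.65).

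**Figure D1:**
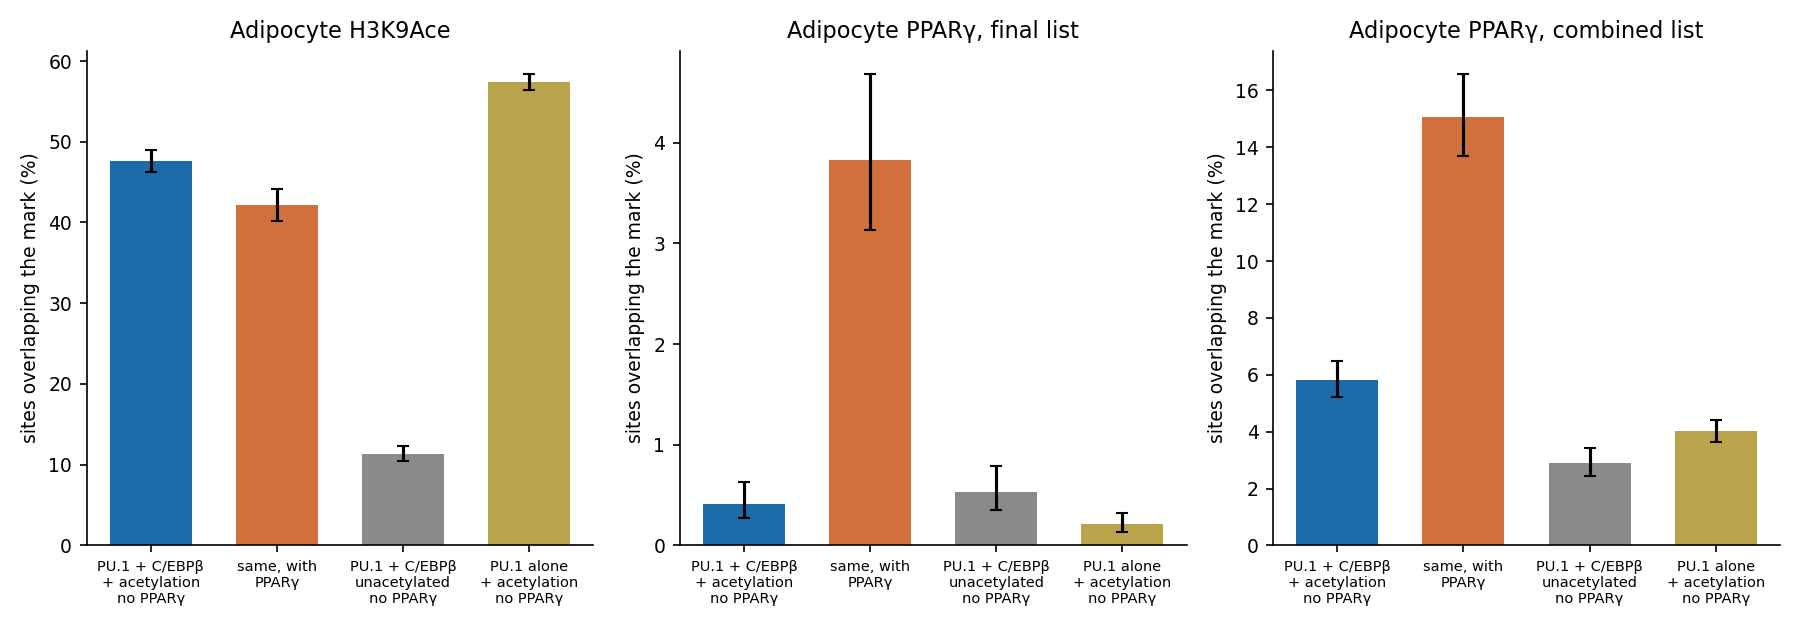
Share of sites in percent (vertical axis) that overlap adipocyte H3K9Ace, the final adipocyte PPARγ list and the combined adipocyte PPARγ list, for 4 kinds of macrophage PU.1 region. Bars are shares and error bars 95% Wilson intervals; the PPARγ-free acetylated sites stand at 47.6%, 0.415% and 5.82%, and the PPARγ-carrying sites at 42.2%, 3.83% and 15.1%.

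The final adipocyte PPARγ list met 21 of the 5055 PPARγ-free sites, 0.415% (0.272 to 0.634), and 91 of the 2375 PPARγ-carrying sites, 3.83% (3.13 to 4.68). The share over all autosomal PU.1 regions was 0.556%. By Fisher's exact test the odds at PPARγ-free sites were 0.105 of those at PPARγ-carrying sites (0.0617 to 0.170), adjusted p = 7.19e-27. The combined adipocyte PPARγ list, which joins 3 datasets, gave 294 PPARγ-free sites, 5.82% (5.20 to 6.50), and 358 PPARγ-carrying sites, 15.1% (13.7 to 16.6), where all PU.1 regions gave 3.93%. The corresponding ratio of odds was 0.348 (0.295 to 0.411), adjusted p = 4.6e-36 by Fisher's exact test. Both PPARγ contrasts were smaller against carrying sites found in the longer macrophage list alone, with ratios of 0.372 and 0.659 (Fisher's exact test, adjusted p = 0.00362 and 0.000168). All PPARγ-free sites in the final adipocyte list were also in the combined list. At an overlap of 1 bp these lists are unlike measures. Combined regions had a median width of 899 bp and covered 10.7 Mb of the autosomes, against 260 bp and 0.746 Mb for the final list.

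Against the other kinds of PU.1 region without PPARγ, the PPARγ-free acetylated sites took a middle place for adipocyte acetylation. Unacetylated sites lay in adipocyte H3K9Ace in 515 of 4535 cases, 11.4% (10.5 to 12.3), and the odds at the acetylated sites were 7.10 times higher (6.37 to 7.91), with a Fisher's exact p below what floating-point numbers hold. PU.1-alone sites lay in it in 5798 of 10102 cases, 57.4% (56.4 to 58.4), above the PPARγ-free sites with C/EBPβ, whose odds were 0.675 of theirs (0.630 to 0.723), adjusted p = 1.77e-29 by Fisher's exact test. The order therefore was PU.1 alone, then PU.1 with C/EBPβ, then the same with PPARγ, then the unacetylated sites, and the neighbours of the PPARγ-free sites in this order each differed from them by these tests.

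For the combined adipocyte PPARγ list the PPARγ-free sites exceeded both kinds. They stood at 5.82%, against 2.89% at unacetylated sites (odds ratio 2.08, 1.68 to 2.58, adjusted p = 4.05e-12 by Fisher's exact test) and 4.02% at PU.1-alone sites (odds ratio 1.47, 1.26 to 1.72, adjusted p = 1.79e-06). In the final adipocyte list no difference from unacetylated sites passed the test, with 21 of 5055 against 24 of 4535 (odds ratio 0.784, 0.415 to 1.47, adjusted p = 0.456 by Fisher's exact test). Against PU.1-alone sites, also 21 but of 10102, the ratio was 2.0 (1.04 to 3.86), adjusted p = 0.0356 by Fisher's exact test. That call was lost in 5 of the 7 alternative settings tried, with ratios from 1.65 to 1.87 there.

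Where adipocyte H3K9Ace reached the PU.1 region of a PPARγ-free site, it mostly covered all of it. The whole PU.1 region lay in adipocyte H3K9Ace at 42.3% of them and a part of it at 5.32%. The domain around the site was free of adipocyte H3K9Ace at 48.0% of the PPARγ-free sites and wholly inside it at 26.5%. At PPARγ-carrying sites these shares were 52.0% and 18.7%. Where both cell types were acetylated, the adipocyte region was the wider one at 70.6% (68.7 to 72.4) of PPARγ-free sites and 59.8% (56.7 to 62.8) of PPARγ-carrying sites. Adipocyte H3K9Ace covered 98.7 Mb of the autosomes and macrophage H3K9Ace 52.3 Mb. The share with a wider adipocyte region over all PU.1 regions acetylated in both was not worked out. The median width of the adipocyte region at sites acetylated in both was 3600 bp for PPARγ-free sites and 3100 bp for PPARγ-carrying sites. It was 3800 bp at PU.1-alone sites, and 1000 bp over all autosomal adipocyte H3K9Ace regions. The last value counts each region once, while the medians at sites count a region for every site in it. Wide regions thus weigh more in the medians at sites.

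Adipocyte PPARγ came with adipocyte acetylation at PPARγ-free and PPARγ-carrying sites alike. Of the 2407 sites in adipocyte H3K9Ace, 267 met the combined adipocyte PPARγ list, 11.1% (9.90 to 12.4). Of the 2648 sites outside it only 27 did, 1.02% (0.702 to 1.48). All 21 sites in the final adipocyte list were acetylated in adipocytes, and 0 of the 2648 others were in that list, which allows a share of up to 0.113% by a limit of 3 counts, or 0.145% by the upper Wilson bound. PPARγ-carrying sites had the combined list at 30.9% with and 3.50% without adipocyte H3K9Ace. Of their 91 sites in the final adipocyte list, 82 were acetylated in adipocytes. The same split over all PU.1 regions was not worked out, so it is not shown to be particular to these sites. Within strata of adipocyte H3K9Ace the odds ratio of adipocyte PPARγ, PPARγ-free over PPARγ-carrying, was 0.279 for the combined list and 0.0895 for the final list, so the ratios were no nearer to 1 than without strata.

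The width of the macrophage domain went along with adipocyte acetylation. PPARγ-free sites in adipocyte H3K9Ace lay in domains of a median 2450 bp, and those outside it in domains of 1250 bp. In domains of at most 1000 bp, 17.8% of the 918 PPARγ-free sites were acetylated in adipocytes, against 20.8% of the 355 PPARγ-carrying sites. In domains over 1000 and up to 1500 bp the shares were 31.1% and 29.2%. From there on the PPARγ-free sites stood higher. The shares were 50.2% and 40.5% up to 2000 bp, 64.0% and 48.7% up to 3000 bp, and 71.3% and 59.3% up to 5000 bp. In the 412 PPARγ-free and 246 PPARγ-carrying sites of still wider domains they were 76.9% and 68.3%. Within quartiles of domain width the common odds ratio was 1.40 (1.26 to 1.55, Mantel-Haenszel), above the 1.25 without strata. Within quartiles of PU.1 width it was 1.18 (1.06 to 1.30), below it. In the widest of those quartiles, PU.1 regions over 435 bp, 41.5% of PPARγ-free and 42.1% of PPARγ-carrying sites were acetylated in adipocytes. Whether the difference changes with domain width was not tested.

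**Figure D2:**
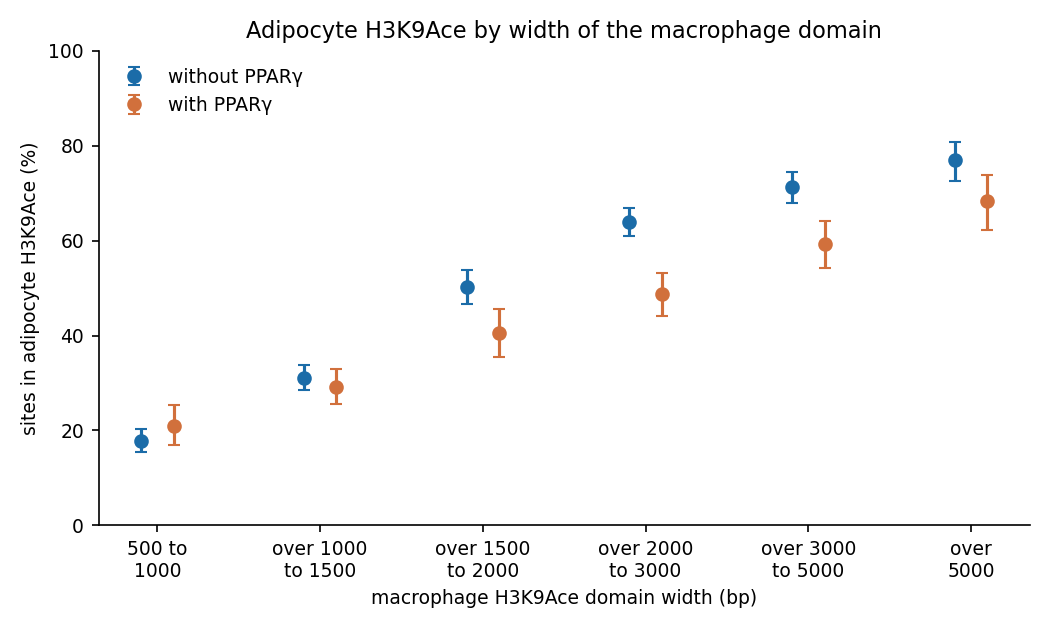
Share of sites in adipocyte H3K9Ace in percent (vertical axis) by width class of the macrophage H3K9Ace domain in bp (horizontal axis), for sites without and with PPARγ. Points are shares and bars 95% Wilson intervals; PPARγ-free sites run from 17.8% in the narrowest class to 76.9% in the widest, and PPARγ-carrying sites from 20.8% to 68.3%.

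At the border of the rule, 190 PPARγ-free sites lay under 100 bp from a PPARγ region, and 189 PPARγ-carrying sites overlapped one by under 100 bp. The combined adipocyte list met 10.0% of these PPARγ-free sites and 9.52% of these PPARγ-carrying sites, and adipocyte H3K9Ace 46.8% and 50.8%. Their median PU.1 widths were 304.5 bp and 333 bp. The longer PPARγ list itself reaches down to an authors' peak height of 5 and a false discovery rate of 9.67%.

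Most PPARγ-free sites lay 1000 bp or more from the receptor, but nearer to it by the median than the other kinds without PPARγ. The median gap to the nearest PPARγ region was 5157 bp (quartiles 1172 and 20031 bp), and 3902 sites, 77.2%, were 1000 bp or more away. At PU.1-alone sites the median gap was 8564.5 bp, and at unacetylated sites 13076 bp. The combined adipocyte PPARγ list met 8.61% of the 546 sites with a gap of 100 to under 500 bp and 5.28% of the 417 sites from 500 to under 1000 bp. It met 4.81%, 4.51% and 5.35% in the next 3 classes, with upper bounds at 5000, 20000 and 100000 bp. At the 293 sites with a gap of 100000 bp or more the share was 10.6% (7.55 to 14.6), with 31 sites on 16 chromosomes. Adipocyte H3K9Ace stayed between 46.2% and 50.1% in all classes below 100000 bp and was 54.6% beyond. For the combined list the shares at both ends of the distance scale were thus above those in its middle. Adipocyte H3K9Ace was higher at the far end alone, and neither pattern was tested.

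Among PPARγ-carrying sites, by contrast, adipocyte PPARγ was more frequent where the macrophage PPARγ region was higher. The combined list met 7.26% of the 882 carrying sites with an authors' PPARγ peak height of 5 to 7 and 53.0% of the 166 with a height over 20. PPARγ-free sites within 500 bp of a PPARγ region, at 10.0% and 8.61%, were thus close to the weakest carrying sites. Those 100000 bp or more away, at 10.6%, were as well, so this was not particular to near sites. The final adipocyte list met 1 of the 190 and 4 of the 546 near sites, and 5 of the 882 weakest carrying sites. A combined region, of a median width of 899 bp, can reach both a PU.1 region and a PPARγ region near it. The part of that width in these shares was not tested.

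**Figure D3:**
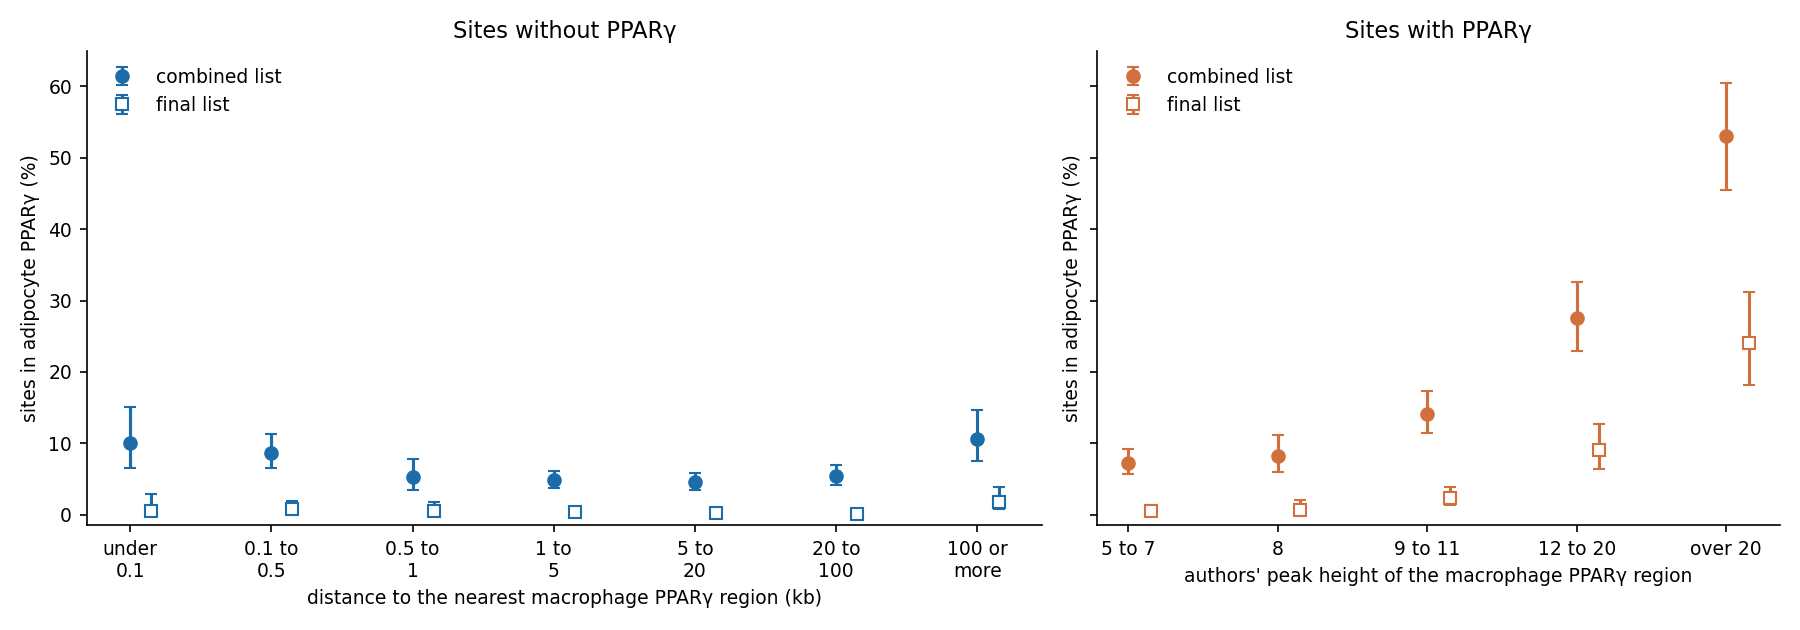
Share of sites in adipocyte PPARγ in percent (vertical axis) at sites without PPARγ, by distance to the nearest macrophage PPARγ region in kb, and at sites with PPARγ, by the authors' peak height of that region. Filled circles are the combined adipocyte list, open squares the final list and bars 95% Wilson intervals; the combined share lies between 4.51% and 10.6% at PPARγ-free sites and between 7.26% and 53.0% at PPARγ-carrying sites.

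The PPARγ-free sites differed from the PPARγ-carrying sites in width more than in arrangement. An overlap of 1 bp is met more easily by wide regions, so widths, spacing and domain widths are tied to the rule and are described with no test. The PU.1 region had a median width of 309 bp at PPARγ-free sites (quartiles 240 and 406 bp) and 375 bp at PPARγ-carrying sites (quartiles 289 and 488 bp). All autosomal PU.1 regions had a median of 239 bp, and the unacetylated sites one of 269 bp. The C/EBPβ region had a median width of 321 bp at PPARγ-free sites and 389 bp at PPARγ-carrying sites. Both factors shared a median of 239 bp at PPARγ-free sites and 292 bp at PPARγ-carrying sites.

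The centres of PU.1 and C/EBPβ lay close together at both. The median distance was 50.5 bp at PPARγ-free sites (quartiles 23.0 and 100.5 bp) and 54.0 bp at PPARγ-carrying sites (quartiles 23.5 and 110.0 bp). At unacetylated sites, whose regions are narrower, it was 38.5 bp. The centres were within 100 bp at 74.8% of PPARγ-free sites and 71.5% of PPARγ-carrying sites, and the C/EBPβ centre fell inside the PU.1 region at 87.6% and 90.0%. By quartile of PU.1 width, narrow to wide, the median distances at PPARγ-free and PPARγ-carrying sites were 48.5 and 52.0 bp, 40.8 and 42.8 bp, 48.0 and 46.0 bp, and 77.3 and 74.5 bp. The direction was thus not the same in all quartiles. Only 128 PPARγ-free sites, 2.53%, joined the factors by 50 bp or less, and 96 sites met 2 C/EBPβ regions. Neither factor lay regularly outward of the other, since the C/EBPβ centre was nearer the domain edge at 50.5% of PPARγ-free sites and 48.5% of PPARγ-carrying sites.

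**Figure D4:**
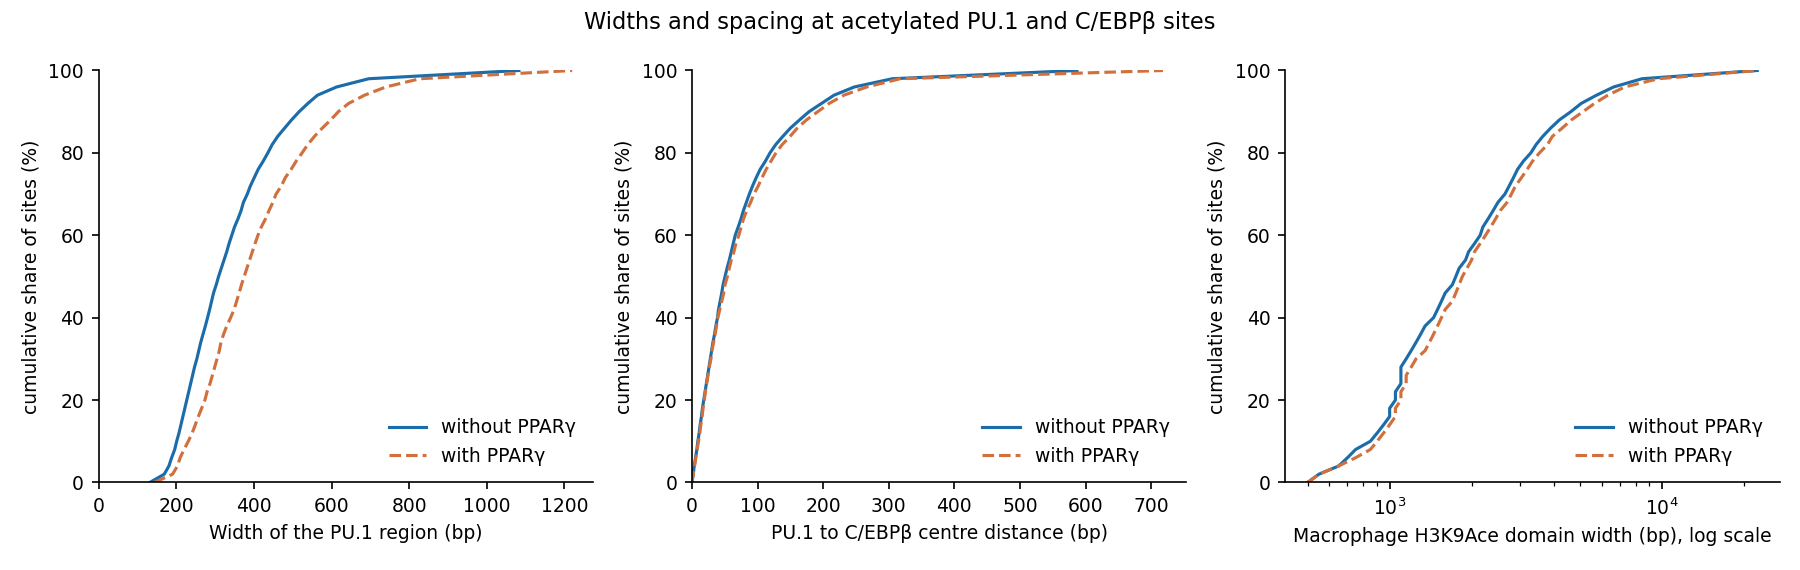
Cumulative share of sites in percent (vertical axes) against PU.1 region width, distance between PU.1 and C/EBPβ centres, and macrophage H3K9Ace domain width on a log scale, all in bp. Solid lines are PPARγ-free sites and dashed lines PPARγ-carrying sites; medians are 309 and 375 bp, 50.5 and 54.0 bp, and 1750 and 1850 bp.

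The domains around the sites were wide in both classes. Their median width was 1750 bp at PPARγ-free sites and 1850 bp at PPARγ-carrying sites, and it was also 1850 bp at PU.1-alone sites. Counted once each, domains with a PPARγ-free site had a median of 1650 bp and those with a PPARγ-carrying site 1750 bp. All autosomal macrophage domains had a median of 1050 bp. Domains of at least 4000 bp held 13.5% of PPARγ-free sites and 16.0% of PPARγ-carrying sites. The centre of the PU.1 region lay a median of 441 bp from the nearest domain edge at PPARγ-free sites and 499.5 bp at PPARγ-carrying sites. As a share of domain width that was 0.281 and 0.283, where 0 is the edge and 0.5 the middle. In 356 PPARγ-free sites, 7.04%, and 181 PPARγ-carrying sites, 7.62%, the centre fell outside the domain that the region touched.

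Most domains with PPARγ-free sites held a single one, other PU.1 regions not counted. PPARγ-carrying sites were alike in this, with a single one in 1885 of their 2112 domains. A single PPARγ-free site was found in 4046 of the 4518 domains, 2 in 420, and 3 to 5 in the other 52. No PPARγ region lay anywhere in 3493 of these domains, 77.3%, and 343 of them, 7.59%, also held a PPARγ-carrying site. The 1226 PPARγ-free sites whose domain holds PPARγ elsewhere lay in wider domains, with a median of 3150 bp against 1500 bp for the other 3829. Their share in adipocyte H3K9Ace was 56.7% (53.9 to 59.4) against 44.7% (43.1 to 46.3), and in the combined adipocyte PPARγ list 7.99% against 5.12%. Another PU.1 centre lay within 1000 bp of 34.4% of PPARγ-free sites and 39.5% of PPARγ-carrying sites.

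The domains with the most PPARγ-free sites differed in their adipocyte state. A domain on chromosome 2 at 90881751 to 90890850 held 5 of them among 8 PU.1 regions and also 3 PPARγ regions, and adipocyte H3K9Ace covered 70.3% of it. The domain on chromosome 8 at 122710651 to 122714700 also held 5, with 1 PPARγ region, and had no adipocyte H3K9Ace. Of the 9 domains with 4, the first 3 in chromosome order are named. They lay on chromosome 1 at 173067351 to 173072250 (2 PPARγ regions, 86.7% covered), chromosome 4 at 141140801 to 141147800 (no PPARγ, 30.7% covered) and chromosome 5 at 143078251 to 143090250 (no PPARγ). The last lay wholly in adipocyte H3K9Ace with 1 region of the final and 2 of the combined adipocyte PPARγ list.

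The domain on chromosome 5 was also, at 12000 bp, the widest domain with a PPARγ-free site and no macrophage PPARγ. The next 4 were chr10:80536751-80547200 (10450 bp), chr8:129472701-129482800 (10100 bp), chr12:111889201-111898650 (9450 bp) and chr6:108623401-108632600 (9200 bp). Each held 1 or 2 PPARγ-free sites, and adipocyte H3K9Ace covered between 95.2% and 100% of each of the 5. None of these 4 met the final adipocyte PPARγ list. The combined list met those on chromosome 8, with 1 region, and chromosome 12, with 2. Adipocyte acetylation rose with domain width at PPARγ-carrying sites too. Its coverage of other equally wide domains was not worked out, so high coverage is not shown to be particular to the domains named here.

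The 5 widest PU.1 regions among the PPARγ-free sites measured 961 to 1083 bp. They were chr14:43971543-43972626, chr16:91349930-91351011, chr1:182437935-182438952, chr3:90754646-90755619 and chr11:106828026-106828987. Their C/EBPβ centres were 28.5 to 287 bp away, and the nearest PPARγ regions 1277 to 28869 bp. Adipocyte H3K9Ace reached 4 of them, all but the one on chromosome 3, and none was in an adipocyte PPARγ list.

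Among the 21 PPARγ-free sites in the final adipocyte PPARγ list, the authors' fold of the adipocyte region had a median of 5.79, against 6.55 at the 91 PPARγ-carrying sites and 6.39 over the autosomal part of that list. The highest fold, 10.4, was at chromosome 10, 6190606 to 6190888, in a macrophage domain of 650 bp and an adipocyte one of 3300 bp, 11877 bp from macrophage PPARγ. The next was 9.15 at chromosome 5, 106116343 to 106116759, 2966 bp from macrophage PPARγ. Folds of 7.38 and 6.95 belonged to chr6:129146229-129146381 and chr9:57231483-57231736, only 44 and 263 bp from macrophage PPARγ. The fifth, with 6.88, was at chromosome 3, 130050540 to 130050841, 121910 bp away. Of the 21 sites 7 were within 1000 bp of a macrophage PPARγ region, 33.3% (17.2 to 54.6), against 22.8% of all PPARγ-free sites.

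The sites were spread over all 19 autosomes. They made up between 9.22% of PU.1 regions on chromosome 18 and 14.2% on chromosome 19. Adipocyte H3K9Ace at PPARγ-free sites went from 34.4% on chromosome 13 to 61.6% on chromosome 19, and was above that of PPARγ-carrying sites on 17 of 19 chromosomes, all but 12 and 17. The share of sites in the combined adipocyte PPARγ list was lower at PPARγ-free than at PPARγ-carrying sites on each of the 19. Chromosome 6 held 6 of the 21 sites in the final adipocyte list, and without it the odds ratio against PPARγ-carrying sites was 0.0834 (adjusted p = 2.14e-26 by Fisher's exact test).

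**Figure D5:**
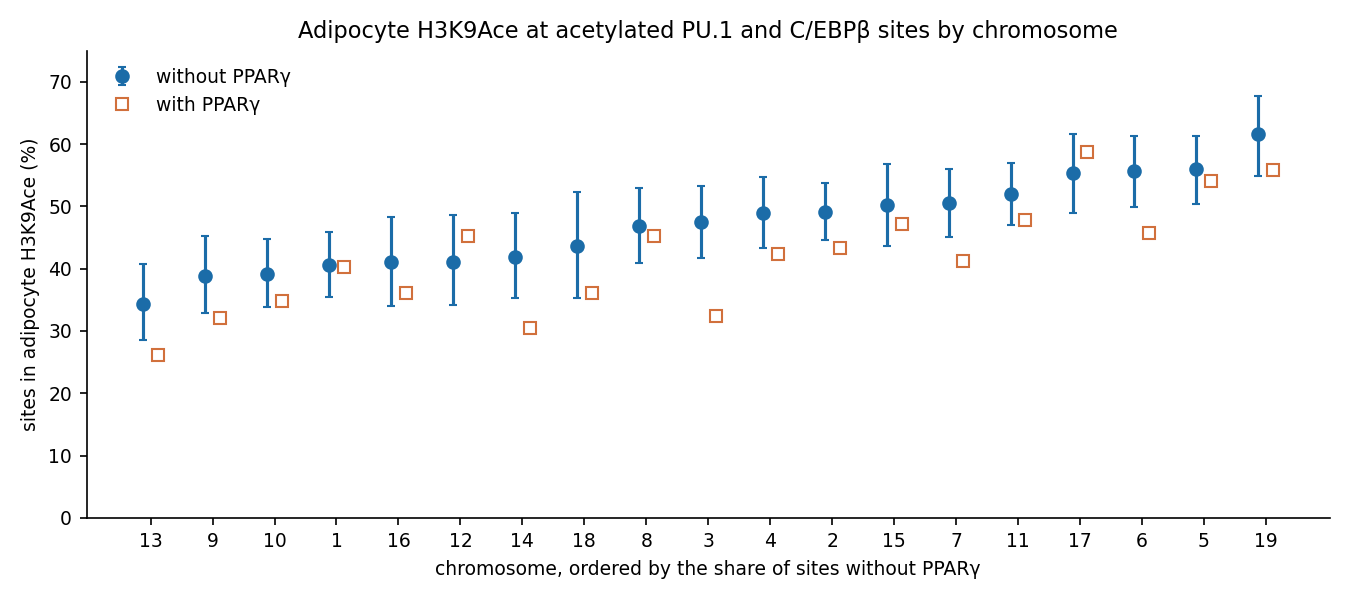
Share of sites in adipocyte H3K9Ace in percent (vertical axis) on each autosome (horizontal axis), with circles for PPARγ-free sites, bars for their 95% Wilson intervals and open squares for PPARγ-carrying sites. PPARγ-free sites run from 34.4% on chromosome 13 to 61.6% on chromosome 19 and lie above the PPARγ-carrying sites on 17 of 19 chromosomes.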

How the data were processed

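Per the labels' protocols, the authors aligned 36 bp reads by ELAND to mm8 with no more than 2 mismatches and used those that matched best at 1 place, which thins repeats. Settings and control of the peak caller: not given in the sources used here. The deposited lists hold positions. The macrophage and final adipocyte PPARγ lists also hold, per the file headers, a fold, a signal called peak height and a false discovery rate, read as a percent. The longer macrophage PPARγ list is unmasked. No site overlapped a masked interval, but the series text gives the mask for all final lists. The lack of such sites is therefore no check of the longer list. Samples were grouped by title; the description field names PPARγ for all 6.

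Overlaps of at least 1 bp were found in Python 3.11.15 with numpy and pandas and checked by brute force on simulated regions. Repeated rows were counted once. A site's domain and C/EBPβ region are those with most shared bp. Fisher's exact tests (scipy 1.17.1, 2-sided, sample odds ratios, conditional 95% intervals) were adjusted by Benjamini-Hochberg over 9 comparisons at a threshold of 0.05, and strata were pooled by Mantel-Haenszel (statsmodels 0.14.6). Intervals and tests treat regions as independent and cover counting error only. The sites, lists and tests were chosen with earlier results of these data known. Regions are named by 4 rules of 5 each: most sites in a domain, widest PU.1 region, highest adipocyte fold, and widest domain without PPARγ. Genes, motifs and sequence were not analysed here.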

Additional observations from a re-analysis of the deposited data

How the results depend on the processing

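Of 9 comparisons, 2 lost a call in some setting, and no odds ratio changed direction. For adipocyte H3K9Ace at PPARγ-free against PPARγ-carrying sites the ratio was 1.04 with PPARγ from the final list and 1.11 with sites from domains without PPARγ. For the final adipocyte PPARγ list against PU.1-alone sites it was 1.65 with no PPARγ within 1000 bp, 1.67 with PU.1 centres in each list, 1.75 with at least 50% of the PU.1 region in the adipocyte mark, 1.87 with 1 site per domain and 1.84 within quartiles of PU.1 width. The causes were not tested. With PPARγ from the final list the median PU.1 width was 323 bp at PPARγ-free and 388.5 bp at PPARγ-carrying sites. With PU.1 centres it was 366 bp at PPARγ-carrying sites, and the distance between factor centres was 45.5 bp at both. With 1 site per domain the domain width was 1650 bp at PPARγ-free and 1750 bp at PPARγ-carrying sites. The settings that use PPARγ elsewhere in a domain, weak carrying sites, strata of adipocyte H3K9Ace and chromosome 6 were added after seeing the data. No paired analysis was possible because each group holds 1 library. Depth is unknown, so a missing region may be one that was not detectable.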

Other observations

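The rule takes autosomes alone. On chromosomes X and Y, 39 of 871 PU.1 regions met the other conditions without PPARγ, and 5 more carried it. Of the 39, 16 lay in adipocyte H3K9Ace, 41.0% (95% Wilson interval 27.1 to 56.6). The share over all 871 regions was not worked out, so the 41.0% has no base on these chromosomes.

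Adipocyte H3K9Ace at the autosomal PPARγ-free sites was also more frequent where the factor centres lay further apart. It stood at 44.7% of 1387 sites with centres within 25 bp and at 58.7% of 390 sites with centres over 200 bp apart, whose macrophage domains had medians of 1600 and 2450 bp. At PPARγ-carrying sites these shares were 41.3% and 45.4%. The part of domain width in this was not tested. Sites that share their domain with 2 or more other PPARγ-free sites lay in adipocyte H3K9Ace in 65.7% of 169 cases, in domains of a median 5850 bp. The share was 46.5% at the 4046 sites with no other PPARγ-free site in their domain, whose median was 1550 bp.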
